A study of Mus musculus with 15 samples.

Results

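The Krüppel-like factors are a family of DNA-binding proteins named after the fruit fly protein Krüppel. Of this family, 10 genes were followed here (Klf2, Klf3, Klf4, Klf6, Klf7, Klf9, Klf10, Klf11, Klf13 and Klf15), out of 19938 genes with a named probe set. They were chosen by symbol, with earlier results of these data known, and do not cover the whole family. Each had 1 probe set, which is a group of short probes along a transcript that gives 1 value per array. All 10 stood above 5.71, the log2 value under which 95% of 1027 olfactory receptor genes lay, although Klf15 stood only slightly above it. The samples were freshly isolated microvascular endothelial cells, the cells that line the small vessels, from the brain, heart and liver of mice.

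All mice were Tie2-GFP animals (FVB background), 8 to 12 weeks old, with males and females in equal shares. Their transgene places green fluorescent protein under the promoter of Tek (Tie2), an endothelial receptor. They carried no other allele and received no treatment that the labels name. Visible large vessels were cut away, the tissue was digested for 60 min, and the fluorescent cells were sorted straight into a lysis solution. A brain sample pooled RNA of 6 mice, a heart sample of 4 and a liver sample of 2, with 5 samples per tissue, and 5 ng of RNA was amplified for each array. The enzymes for brain were collagenase and DNase at 37 °C, then a short trypsin step, those for heart collagenase at 37 °C, and those for liver dispase without warming, at room temperature. Tissue, enzyme, temperature and pool size changed together, so their parts in any difference between tissues cannot be told apart. Tek promoter activity is also known in some blood-lineage cells, so the sort does not take endothelial cells alone by design.

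Every Krüppel-like factor carries a set of zinc fingers at its end, through which it binds GC-rich and CACCC sites, and the members differ in the rest of the protein, which recruits activators or repressors. In endothelium the family is best known for Klf2 and Klf4. Laminar blood flow induces both genes through the kinase cascade Map3k3, Map2k5 and Mapk7 (ERK5) and the MEF2 factors, and both proteins raise anticoagulant and vasodilator genes and hold down inflammatory ones. Several members, Klf4, Klf6, Klf10 and Klf11 among them, are also known to respond quickly to stress, injury or growth factors.

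Levels are log2 values as deposited, so a difference of 1 is a doubling. Differences were tested with limma over all genes, and a gene is called where the Benjamini-Hochberg adjusted p is under 0.05. Values of different probe sets carry different probe responses, so each gene is compared between tissues and not with other genes. Arrays of 1 tissue correlated at 0.978 to 0.993 and arrays of different tissues at 0.918 to 0.960, and array medians ran from 5.98 to 6.11. No 2 arrays held identical values. The labels do not say that the pools came from separate isolations, so p-values measure the spread between these pooled samples. In bulk RNA, fewer cells of a type and less RNA per cell cannot be told apart.

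The sorted cells carried their label: the mean of 20 general endothelial genes was 10.20, 10.07 and 10.15 for brain, heart and liver. Single genes of this list differed in both directions. In brain 7 were called higher and 5 lower than in liver, and in heart 4 were higher and 7 lower than in liver. Between brain and heart 5 were higher and 4 lower in brain. The similar means therefore do not show equal endothelial content. Markers of neighbouring cells were present as well. Of 15 cardiomyocyte genes, 14 exceeded both other tissues in heart, with an array mean of 7.70 to 9.19 against at most 6.04 elsewhere (Tnnt2 was 11.36 in heart and 6.28 in brain and in liver). Of 15 hepatocyte genes, 14 exceeded both other tissues in liver (Alb 9.88 against 4.19 for brain and 4.26 for heart, and Apoa2 9.91 against 6.04 and 6.25), the exception being Ttr, which was highest in brain. Of 12 macrophage and Kupffer cell genes, 11 were higher in liver, where the array means split into 8.08, 8.65 and 8.30 on liver 1, 3 and 4 and 6.01 and 5.68 on liver 2 and 5 (Vsig4 averaged 8.88 in liver and 4.10 in brain and in heart). In heart 6 of 10 fibroblast genes exceeded both others (Dcn, Dpt), and pericyte and smooth muscle genes were lower in liver than in both others for 5 of 12 (Rgs5 10.47 in heart, 8.73 in brain and 6.93 in liver). Neuron, astrocyte, oligodendrocyte and lymphoid or platelet lists had at most 2 members higher or lower than in both other tissues in any tissue.

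Among the 10 factors, 4 stood lower in liver than in both other tissues with both contrasts called: Klf2, Klf4, Klf6 and Klf11. Over all genes 5.64% did so. For the same 4 factors every liver array lay below every brain and heart array, a pattern that 4.35% of all genes showed. None was higher in liver than in both others, while 10.4% of all genes were. Klf3 was the only member apart in heart, where it was higher than in both others (3.73% of genes were), and no member was apart in brain (7.52% of genes were). Klf10 and Klf13 were each called in 1 contrast, and Klf7, Klf9 and Klf15 in none, as were 62.2% of genes. The 10 were chosen with earlier results known, so these counts describe the list and are no test of the family. Klf12, a family member outside the list, was higher in brain than in both others.

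**Figure D1:**
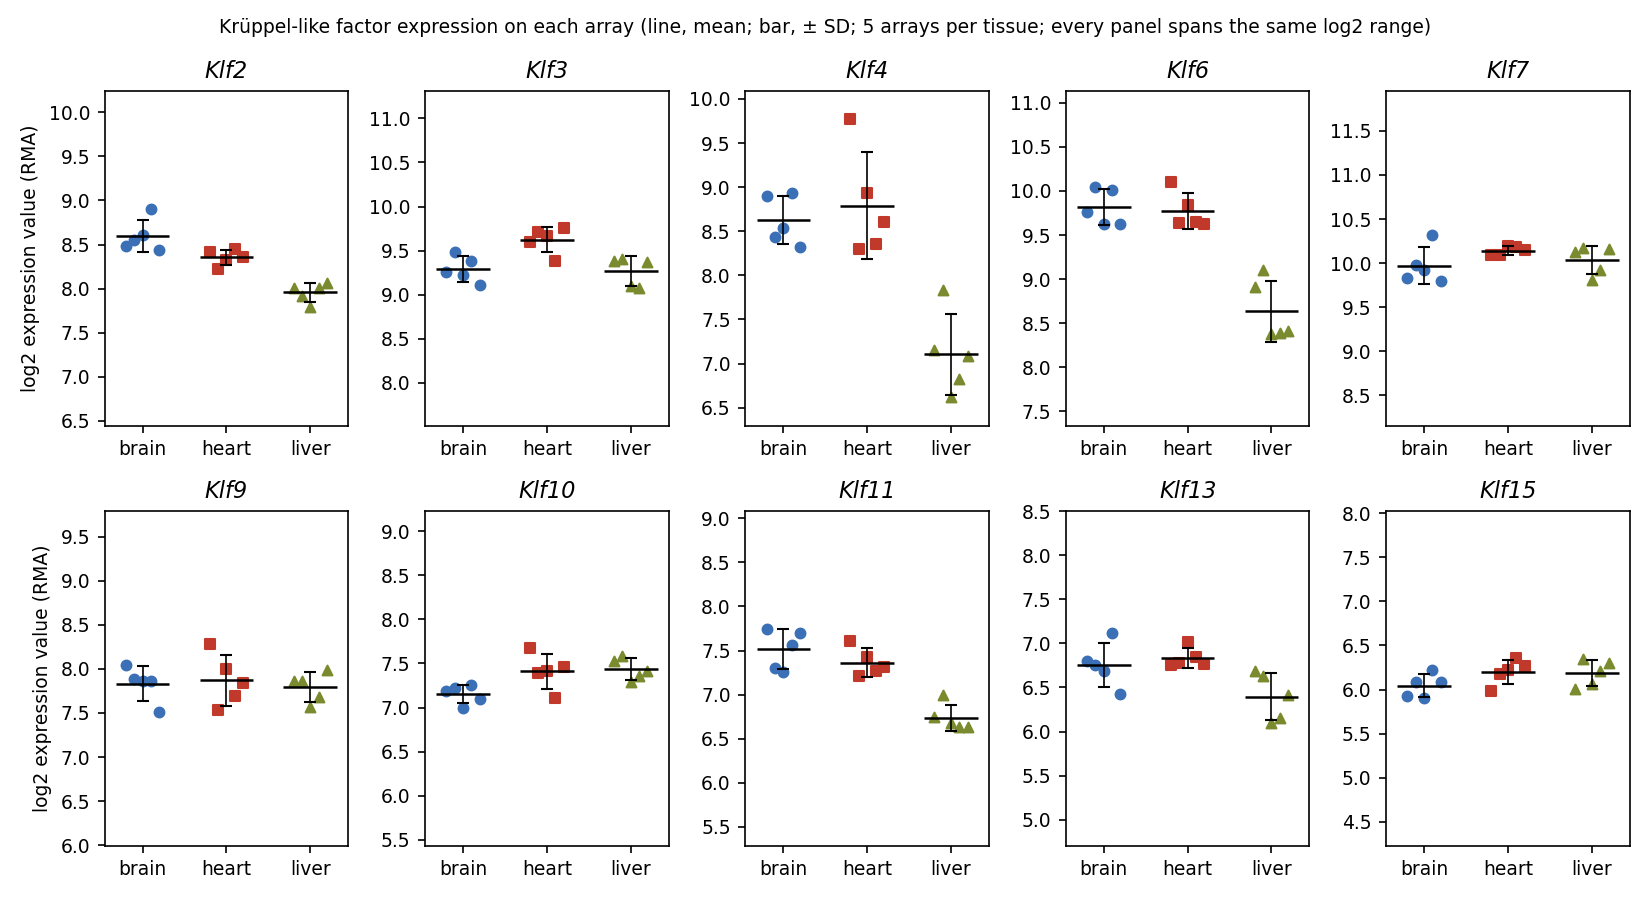
Each panel plots the log2 value of 1 factor (vertical axis, the same span in every panel) on each array of brain, heart and liver; points are arrays, lines are tissue means and bars are ± SD over 5 arrays. The liver points of Klf2, Klf4, Klf6 and Klf11 lie below all brain and heart points, and Klf4 shows the widest scatter, with heart 1 at 9.77.

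The stretches of DNA just upstream of the 4 liver-low genes are shown because transcription of these genes starts there, with that of Klf15, a gene called in no contrast, beside them for the motif it shares with 3 of them. Each is the 250 bases before the gene's start, 5′ to 3′ in the direction of the gene, from RefSeq on GRCm38.p6, which had a window for 9 of the 10 members. Capitals mark the MEF2 core (CTA, any 4 bases, TAG) in Klf2 and the E-box CACGTG in the others.
Klf2, chr8:72318812-72319061, plus strand: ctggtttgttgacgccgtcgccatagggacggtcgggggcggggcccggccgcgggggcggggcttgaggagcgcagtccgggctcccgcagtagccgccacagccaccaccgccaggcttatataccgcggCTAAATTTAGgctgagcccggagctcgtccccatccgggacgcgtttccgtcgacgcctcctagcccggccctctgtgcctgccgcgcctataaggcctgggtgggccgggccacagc
Klf4, chr4:55532476-55532725, minus strand: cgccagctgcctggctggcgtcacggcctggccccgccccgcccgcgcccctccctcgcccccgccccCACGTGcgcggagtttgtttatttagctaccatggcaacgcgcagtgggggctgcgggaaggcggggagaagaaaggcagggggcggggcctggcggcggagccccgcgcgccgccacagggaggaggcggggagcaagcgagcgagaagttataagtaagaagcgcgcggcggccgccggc
Klf6, chr13:5861239-5861488, plus strand: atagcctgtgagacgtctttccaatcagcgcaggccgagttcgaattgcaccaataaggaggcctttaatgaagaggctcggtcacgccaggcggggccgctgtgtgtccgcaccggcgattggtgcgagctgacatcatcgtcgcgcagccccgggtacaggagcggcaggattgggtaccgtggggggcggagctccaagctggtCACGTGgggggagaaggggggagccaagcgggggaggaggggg
Klf11, chr12:24651121-24651370, plus strand: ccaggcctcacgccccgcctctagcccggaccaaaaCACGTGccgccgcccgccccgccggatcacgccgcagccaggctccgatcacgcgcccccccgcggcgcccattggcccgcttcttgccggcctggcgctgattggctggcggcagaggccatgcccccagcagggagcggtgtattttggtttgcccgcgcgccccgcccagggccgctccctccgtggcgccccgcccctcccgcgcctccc
Klf15, chr6:90462326-90462575, plus strand: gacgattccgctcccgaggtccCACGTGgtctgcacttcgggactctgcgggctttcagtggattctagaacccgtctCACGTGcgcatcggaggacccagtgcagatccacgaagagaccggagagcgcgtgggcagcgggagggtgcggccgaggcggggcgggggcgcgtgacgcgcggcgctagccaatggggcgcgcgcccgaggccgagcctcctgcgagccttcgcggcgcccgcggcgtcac

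Both strands of these windows and of 32851 promoters of the same length were searched. The MEF2 core was found in Klf2 alone of the 9, at 118 to 109 bases before the start, and in 3.20% of all promoters. The E-box was found in Klf4, Klf6 and Klf11 with 1 copy each and in Klf15 with 2 copies, and in 6.02% of all promoters. The cAMP response element core TGACGT lay in Klf9 and Klf13 (6.47% of all promoters), the GC box GGGCGG in every window except that of Klf9 (32.7%), and the CCAAT box CCAAT in Klf6, Klf9, Klf11, Klf13 and Klf15 (33.9%). The CArG box, the site of serum response factor, matched none of the 9 windows and 1.47% of all promoters. No match of one motif overlapped a match of another in these windows. A match is a description of the letters, and whether any factor binds there was not measured. The 9 windows were 59.2% to 78.4% G and C, against a median of 52.4% over all promoters. The motif shares over all promoters were not matched for G and C. They therefore do not show whether a motif is more frequent here than in promoters of like G and C.

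Klf4, a flow-induced factor that represses inflammatory genes in endothelium, had the largest difference between tissues of the 10. It read 8.90, 8.44, 8.54, 8.93 and 8.33 on brain arrays 1 to 5. On heart arrays 1 to 5 it read 9.77, 8.29, 8.93, 8.36 and 8.60. On liver arrays 1 to 5 it read 7.16, 7.83, 6.62, 6.82 and 7.09. Brain and heart overlapped, heart 1 stood highest and liver 2 was the highest of the low group. Klf4 was 1.52 log2 (SE 0.26, adjusted p = 0.00017) higher in brain than in liver, which is 2.87-fold, and 1.69 log2 (adjusted p = 6.19e-05), or 3.22-fold, higher in heart than in liver. Between brain and heart the difference was -0.16 log2 (95% interval -0.70 to 0.37, adjusted p = 0.745), and its sign turned to 0.08 without heart 1. The spread of Klf4 within tissues was itself large, with a pooled SD of 0.47 that exceeded that of 98.0% of genes.

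Klf6, which is induced in injured vessels and activates genes of the transforming growth factor beta (TGF-beta) pathway, showed the same split with less scatter. It read 9.76, 10.05, 9.62, 10.02 and 9.63 in brain. Heart gave 10.10, 9.64, 9.85, 9.65 and 9.62. Liver gave 8.91, 9.11, 8.37, 8.39 and 8.41. Brain and heart shared 1 range, and all liver arrays lay under it, the highest at 9.11. Klf6 was 1.18 log2 (SE 0.15, adjusted p = 8.02e-06) higher in brain than in liver and 1.13 log2 (adjusted p = 1.43e-05) higher in heart than in liver, or 2.26-fold and 2.19-fold. Brain and heart differed by 0.04 (95% interval -0.27 to 0.36). Klf4 and Klf6 were the members apart from both other tissues in liver by at least 1 log2, a size that 4.15% of genes reached.

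Klf11, a repressor induced by TGF-beta that recruits the corepressor Sin3a, read 7.74, 7.30, 7.25, 7.57 and 7.70 in brain. Heart gave 7.61, 7.21, 7.43, 7.26 and 7.31. Liver gave 6.74, 6.99, 6.68, 6.63 and 6.63, all under the lowest heart value. It was 0.78 log2 (SE 0.11, adjusted p = 3.07e-05) higher in brain than in liver and 0.63 log2 (adjusted p = 0.000317) higher in heart than in liver, which is 1.71-fold and 1.55-fold. Brain exceeded heart by 0.15 (95% interval -0.09 to 0.39, adjusted p = 0.438).

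Klf2, the flow-induced factor that keeps endothelium quiescent, read 8.48, 8.55, 8.61, 8.90 and 8.43 in brain. Heart gave 8.41, 8.23, 8.32, 8.45 and 8.36. Liver gave 8.01, 7.92, 7.79, 8.01 and 8.06. The tissue means ran 8.60, 8.35 and 7.96 in that order, and brain and heart overlapped only through the lowest brain and the highest heart arrays. Klf2 was 0.64 log2 (SE 0.09, adjusted p = 2.38e-05), or 1.56-fold, higher in brain than in liver and 0.40 log2 (adjusted p = 0.00261), or 1.32-fold, higher in heart than in liver. Brain over heart was 0.24 (95% interval 0.05 to 0.43, adjusted p = 0.0826), which did not pass after adjustment.

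**Figure D2:**
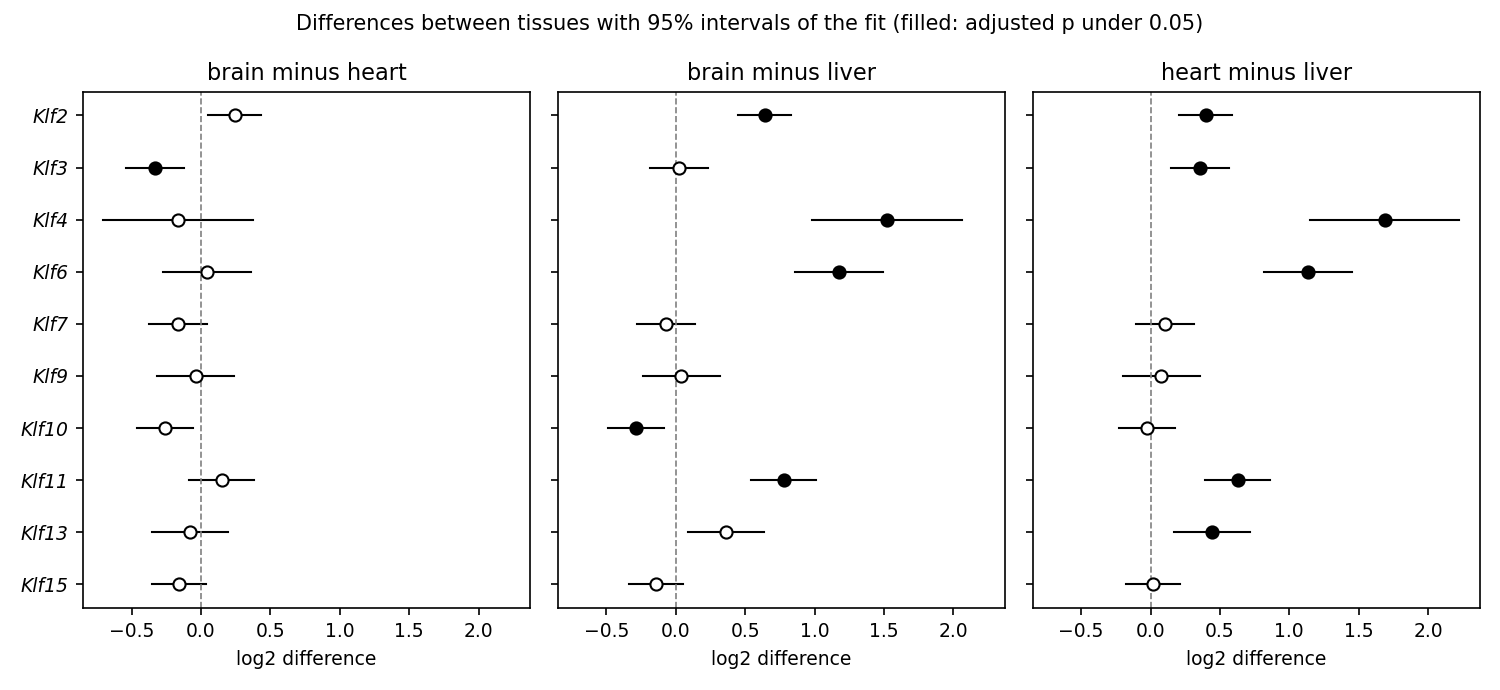
Points give the log2 difference of each factor (vertical axis) between 2 tissues (horizontal axis, 1 panel per contrast) with the unadjusted 95% interval of the limma fit; filled points have an adjusted p under 0.05. The largest differences, 1.52 and 1.69 for Klf4 and 1.18 and 1.13 for Klf6, are in the liver contrasts, and only Klf3 is filled between brain and heart.

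Counted by contrast, 5 of the 10 factors were called between brain and liver, where 25.1% of all genes were: 4 higher in brain (11.1% of genes) and Klf10 lower (14% of genes). Between heart and liver 6 were called, against 27.8% of genes, all of them higher in heart (11.5% of genes) and none lower (16.3% of genes). Between brain and heart 1 was called, Klf3, against 15.4% of genes: lower in brain (7.11% of genes), with none higher (8.29% of genes). With a difference of at least 1 log2 as well, Klf4 and Klf6 remained in each liver contrast (7.38% of genes for brain minus liver, 6.51% for heart minus liver) and none between brain and heart (3.86%). Arrays did not overlap for 5 factors between brain and liver (19% of genes), for 5 between heart and liver (20.6%) and for 0 between brain and heart (12.8%). The median difference over the 10 was 0.20 for brain minus liver, 0.38 for heart minus liver and -0.12 for brain minus heart, while over all genes the medians were -0.00, 0.03 and -0.03. The contrasts share tissues, so their counts are not independent.

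Klf3, a repressor that recruits the corepressor CtBP, was highest in heart. It read 9.60, 9.71, 9.67, 9.39 and 9.76 there. Brain gave 9.26, 9.48, 9.23, 9.39 and 9.11, and liver gave 9.39, 9.41, 9.10, 9.08 and 9.37. Heart 4 lay inside the range of both other tissues, and the other 4 heart arrays lay above it. Klf3 was 0.33 log2 (SE 0.10, adjusted p = 0.0273) lower in brain than in heart and 0.36 log2 (adjusted p = 0.0111) higher in heart than in liver, which is 1.26-fold and 1.28-fold. The brain against heart call was lost without brain 1, 3 or 5 or without heart 2, 3 or 5, where the difference was -0.29 to -0.32 with adjusted p of 0.0571 to 0.0777, when arrays were centred on their medians (adjusted p = 0.0539) and without heart 1 and 3 (adjusted p = 0.0938). The heart over liver difference was 0.23 (adjusted p = 0.245) without the macrophage-rich liver 1, 3 and 4, which leaves only liver 2 and 5.

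Klf10, induced early by TGF-beta and like Klf11 a partner of Sin3a, was lower in brain. It read 7.19, 7.22, 6.99, 7.25 and 7.10 in brain and 7.53, 7.59, 7.29, 7.36 and 7.42 in liver, with no overlap. Heart gave 7.67, 7.40, 7.41, 7.11 and 7.46. Brain minus liver was -0.29 (SE 0.10, adjusted p = 0.0376) and brain minus heart -0.26 (adjusted p = 0.0831). The brain minus liver call was lost without brain 1, 3 or 5 or liver 1, 2 or 5 (-0.25 to -0.29, adjusted p 0.0529 to 0.0992) and after repeated quantile normalization (-0.23, adjusted p = 0.107). It was also lost with the trend and robust prior (adjusted p = 0.0534), without liver 1, 3 and 4 (-0.35, adjusted p = 0.0871) and without heart 1 and liver 2 (-0.25, adjusted p = 0.06). The brain minus heart difference passed without heart 4 (-0.34, adjusted p = 0.0176), with repeated quantile normalization (-0.34, adjusted p = 0.0283) and with centring on endothelial genes (-0.40, adjusted p = 0.0212).

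Klf13, which in T cells activates the chemokine gene Ccl5, leaned the same way as the liver-low genes. It read 6.80, 6.75, 6.69, 7.11 and 6.42 in brain. Heart gave 6.76, 6.78, 7.02, 6.85 and 6.77. Liver gave 6.68, 6.63, 6.10, 6.15 and 6.41. No liver array reached the heart range, while liver 1 and 2 lay inside that of brain. Heart exceeded liver by 0.44 log2 (SE 0.13, adjusted p = 0.0165), and brain exceeded liver by 0.36 (adjusted p = 0.0506). The heart over liver call was lost without liver 3 (0.37, adjusted p = 0.0528), without the cardiomyocyte-rich heart 1 and 3 (0.40, adjusted p = 0.0735) and without the macrophage-rich liver 1, 3 and 4 (0.31, adjusted p = 0.197). The brain over liver difference passed without brain 5 (0.44, adjusted p = 0.0161), liver 1 (0.43, adjusted p = 0.0232) or liver 2 (0.42, adjusted p = 0.0295). It also passed with repeated quantile normalization, the low-value filter, the mean of all probe sets, array weights or heart 1 and liver 2 left out (0.36 to 0.43, adjusted p 0.0175 to 0.05).

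Klf7, Klf9 and Klf15 were called in no contrast. Klf7, the closest relative of Klf6 and known from neuron development, ran from 9.80 to 10.32 in brain, 10.09 to 10.19 in heart and 9.81 to 10.17 in liver. Its intervals were -0.38 to 0.04 for brain minus heart, -0.28 to 0.14 for brain minus liver and -0.11 to 0.31 for heart minus liver, so a liver difference of the size seen in Klf6 lay outside them. Klf9, a glucocorticoid and thyroid hormone target, ran from 7.51 to 8.05, 7.54 to 8.28 and 7.57 to 7.99 in the same order of tissues, and the intervals of its differences lay within -0.31 and 0.35. Klf15, a glucocorticoid target that controls amino acid and glucose metabolism, ran from 5.91 to 6.23, 5.99 to 6.35 and 6.01 to 6.35. Its intervals lay within -0.35 and 0.21.

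Tissue digestion is known to induce immediate-early genes, the transcription factor and signalling genes that respond within minutes to a stimulus, and a list of 23 of them varied across these arrays. Its mean ± SD over 5 arrays was 8.40 ± 0.18 for brain, 8.01 ± 0.80 for heart and 7.39 ± 0.41 for liver, with heart 1 at 9.33 and liver 2 at 8.05 the highest of their tissues. Of the 23 genes, 6 were lower in liver than in both others (Ccn1, Nr4a1 and Egr2 among them) and none was higher. Ccn1 averaged 10.09, 9.34 and 6.74 for brain, heart and liver. Of 10 heat shock genes 7 were lower in liver than in both others, led by Hspb1 at 11.09, 10.43 and 6.96, Hsph1 and Hsp90aa1.

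The factors did not follow this mean alike. With tissue means removed, the correlation with the immediate-early mean over the 15 arrays was 0.832 for Klf4, 0.658 for Klf11, 0.655 for Klf6, 0.615 for Klf9 and 0.585 for Klf10. It was 0.059 for Klf2, -0.025 for Klf3, -0.0087 for Klf7, 0.157 for Klf13 and -0.309 for Klf15. Of all genes 0.522% had a correlation at least as high as that of Klf4. This share was 2.63% for Klf11, 2.69% for Klf6, 3.39% for Klf9 and 4.00% for Klf10. For the other factors it ran from 25.0% (Klf13) to 77.1% (Klf15). With heart 1 and liver 2 then dropped, the value fell to 0.487 for Klf4, 0.403 for Klf11, 0.352 for Klf6, 0.344 for Klf9 and 0.117 for Klf10. Much of it therefore rested on those 2 arrays. The tissue means removed were still those of all 15 arrays, so the 2 dropped arrays still shaped these lower values. The heat shock mean gave 0.921 for Klf4, 0.784 for Klf6 and 0.770 for Klf11, and moved with the immediate-early mean (0.947). Marker means moved with some of the same factors: the cardiomyocyte mean gave 0.612 for Klf4, 0.570 for Klf10 and 0.550 for Klf9, and the pericyte and smooth muscle mean gave 0.613 for Klf9 and 0.553 for Klf4. For Klf15 the oligodendrocyte mean gave 0.664 and the fibroblast mean -0.638. The oligodendrocyte mean reached at most 5.35 in brain, 5.41 in heart and 5.53 in liver, under the limit set by olfactory receptor genes. Klf15 itself stood only slightly above that limit, so the value of 0.664 relates low signals. Whether oligodendrocyte RNA varied with Klf15 was not tested. The macrophage mean gave values from -0.545 (Klf15) to -0.112 (Klf11). No share over all genes was computed for the heat shock and marker means. These correlations describe 15 arrays that also share RNA amplification and normalization.

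The liver differences were fitted again with the immediate-early mean of each array as a covariate. Klf4 was then 0.79 log2 (adjusted p = 0.00931) higher in brain than in liver, down from 1.52, and 1.24 log2 (adjusted p = 3.79e-05) higher in heart than in liver. Klf6 kept 0.85 and 0.93 log2, Klf11 kept 0.55 and 0.49, and Klf2 kept 0.63 and 0.39, and each of these 8 differences still passed. Klf13 no longer passed between heart and liver (0.40, adjusted p = 0.0641), while Klf10 passed for brain minus liver at -0.45 (adjusted p = 0.00985) and for brain minus heart at -0.32 (adjusted p = 0.0216). For Klf4, Klf6 and Klf11 much of the relation to the covariate rested on heart 1 and liver 2. The heat shock mean, which correlated more closely with these genes, was not used as a covariate. The part of a response to digestion in the liver differences was therefore not tested. Leaving out the macrophage-rich liver 1, 3 and 4 left only liver 2 and 5. Klf4 then stood 1.17 (adjusted p = 0.025) and 1.33 (adjusted p = 0.0126) log2 higher in brain and in heart than in liver, and Klf6 stood 1.05 and 1.01 higher. Klf11 still passed in both contrasts, and Klf2 passed against brain (0.61) but not against heart (0.37, adjusted p = 0.0566). Of all liver arrays, liver 2 had the highest Klf4 value (7.83) and the highest immediate-early mean (8.05). Fewer arrays, the values of liver 2 and less macrophage RNA cannot be told apart in this fit. Without the cardiomyocyte-rich heart 1 and 3, the heart over liver difference was 1.31 for Klf4, 1.00 for Klf6, 0.52 for Klf11 and 0.39 for Klf2, all called, while the Klf13 difference no longer passed. The part of hepatocyte, fibroblast, pericyte and smooth muscle RNA in these differences was not tested.

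**Figure D3:**
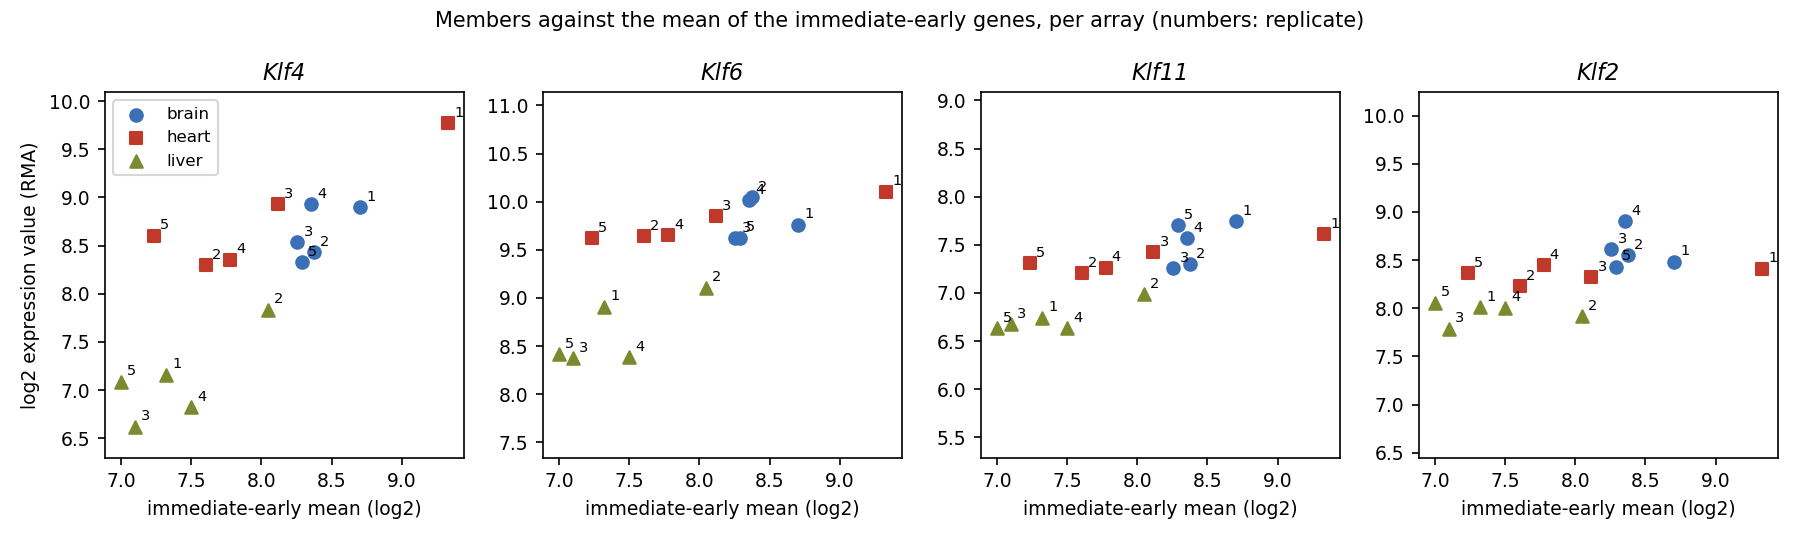
Each panel sets the log2 value of Klf4, Klf6, Klf11 or Klf2 on an array (vertical axis) against that array's mean of 23 immediate-early genes (horizontal axis, log2); symbols mark tissues and numbers mark arrays. Klf4 is highest on heart 1, which also has the highest immediate-early mean (9.33), while Klf2 on that array (8.41) lies within the range of the other heart arrays.

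Deviations within tissues were compared as well. Over the 45 pairs of members, the correlation of their deviations from tissue means had a median of 0.405, and 18 pairs (40%) exceeded 0.5 while 6 (13.3%) fell below 0. Over all pairs of the 12407 genes with a mean above the 5.71 limit in some tissue the median was 0.008, with 6.52% of pairs above 0.5 and 49.1% below 0. Among the members the highest were Klf7 with Klf13 (0.859), Klf2 with Klf7 (0.818), Klf4 with Klf9 (0.815), Klf4 with Klf10 (0.788) and Klf4 with Klf6 (0.767). Klf2 and Klf4, which share flow as an inducer, had 0.31. The lowest was Klf9 with Klf15 (-0.254). These too are descriptions over 15 arrays with no test.

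**Figure D4:**
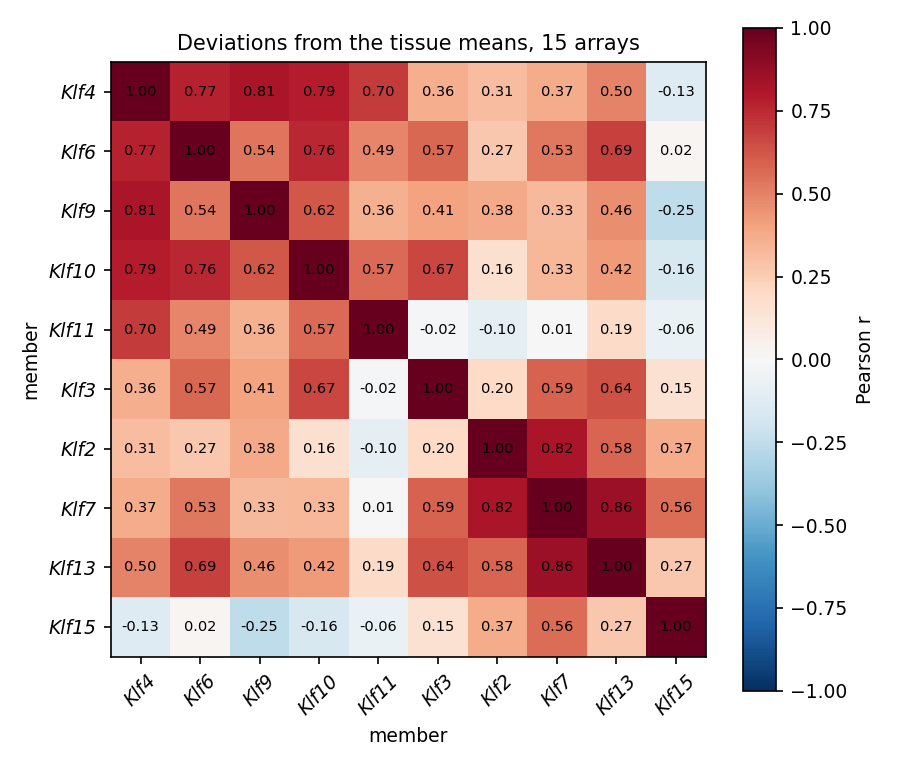
The grid gives Pearson's r between each pair of the 10 factors over 15 arrays after each tissue's mean was removed, on a scale from -1 (blue) to 1 (red). Klf4, Klf6, Klf9 and Klf10 share values from 0.54 to 0.81, Klf2, Klf7 and Klf13 share values from 0.58 to 0.86, and Klf15 is in 4 of the 6 pairs below 0.

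The genes above Klf2 and Klf4 in the flow pathway did not share 1 pattern. Of 13 measured, 2 were lower in liver than in both others, 1 was higher in liver, 1 was higher in heart and none was apart in brain. Heg1, an endothelial receptor that binds the CCM complex and restrains this pathway, was 11.26, 11.34 and 10.46 for brain, heart and liver, so at least 0.81 log2 lower in liver (adjusted p = 3.37e-06 against brain). Mef2d was 8.45, 8.48 and 8.18 in the same order. Mef2c, a MEF2 factor, was 9.75 for heart against 8.83 for brain and 9.03 for liver. Map3k3, the kinase at the top of the cascade, was 8.88 in liver against 8.62 and 8.55. Mef2a was lower in brain than in heart (-0.29, adjusted p = 0.0286) and the mechanosensitive channel Piezo1 higher in heart than in liver (0.27, adjusted p = 0.0265). Map3k2, Map2k5, Mapk7, Hdac5 and the CCM genes Krit1, Ccm2 and Pdcd10 were called in no contrast.

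Of 11 measured genes known to be induced by Klf2 or Klf4, 4 were lower in liver than in both others and 3 were higher in liver. The 4 were Nos3, the endothelial nitric oxide synthase (8.40 in brain, 7.89 in heart, 7.43 in liver), Thbd, the anticoagulant thrombomodulin (9.52, 9.76, 8.78), the sphingosine receptor S1pr1 (11.24, 11.16, 9.90) and the matricellular gene Ccn3 (7.30, 7.07, 5.63). The 3 were the water channel Aqp1 (6.09, 10.92, 12.07), the gap junction gene Gja4 (7.87, 7.37, 9.48) and the quinone reductase Nqo1 (4.77, 4.61, 5.58), whose means lay under the 5.71 limit in every tissue. Tek, whose promoter drives the sorting reporter, was lower in heart than in both others, and Cyp1b1, Ptgds and Nppc were called in no contrast. Nos3 alone of the list was also higher in brain than in both others, by 0.51 log2 over heart (adjusted p = 0.00103). The median over the list was 0.33 for brain minus liver and 0.28 for heart minus liver, beside -0.00 and 0.03 over all genes, and over all genes 5.64% were lower and 10.4% higher in liver than in both others.

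Of 9 measured genes known to be repressed by these factors, 2 were lower in liver than in both others and 1 was higher. Edn1, the vasoconstrictor endothelin, ran from 9.85 to 10.21 in brain, from 6.71 to 7.67 in heart and from 5.54 to 6.91 in liver, with all 3 contrasts called (brain over liver 3.87 log2, adjusted p = 1.59e-10). Ace, the angiotensin-converting enzyme, was 8.18, 8.04 and 6.42. Kdr, the vascular endothelial growth factor receptor, ran the other way, at 10.85, 11.50 and 11.83. The leukocyte adhesion gene Vcam1 was higher in brain (10.19) than in heart (8.29) and liver (8.70). Sele, another adhesion gene, was higher in brain than in liver (0.63, adjusted p = 0.0471), the chemokine gene Ccl2 was lower (-0.73, adjusted p = 0.00952), and F3, Angpt2 and Adm were called in no contrast.

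**Figure D5:**
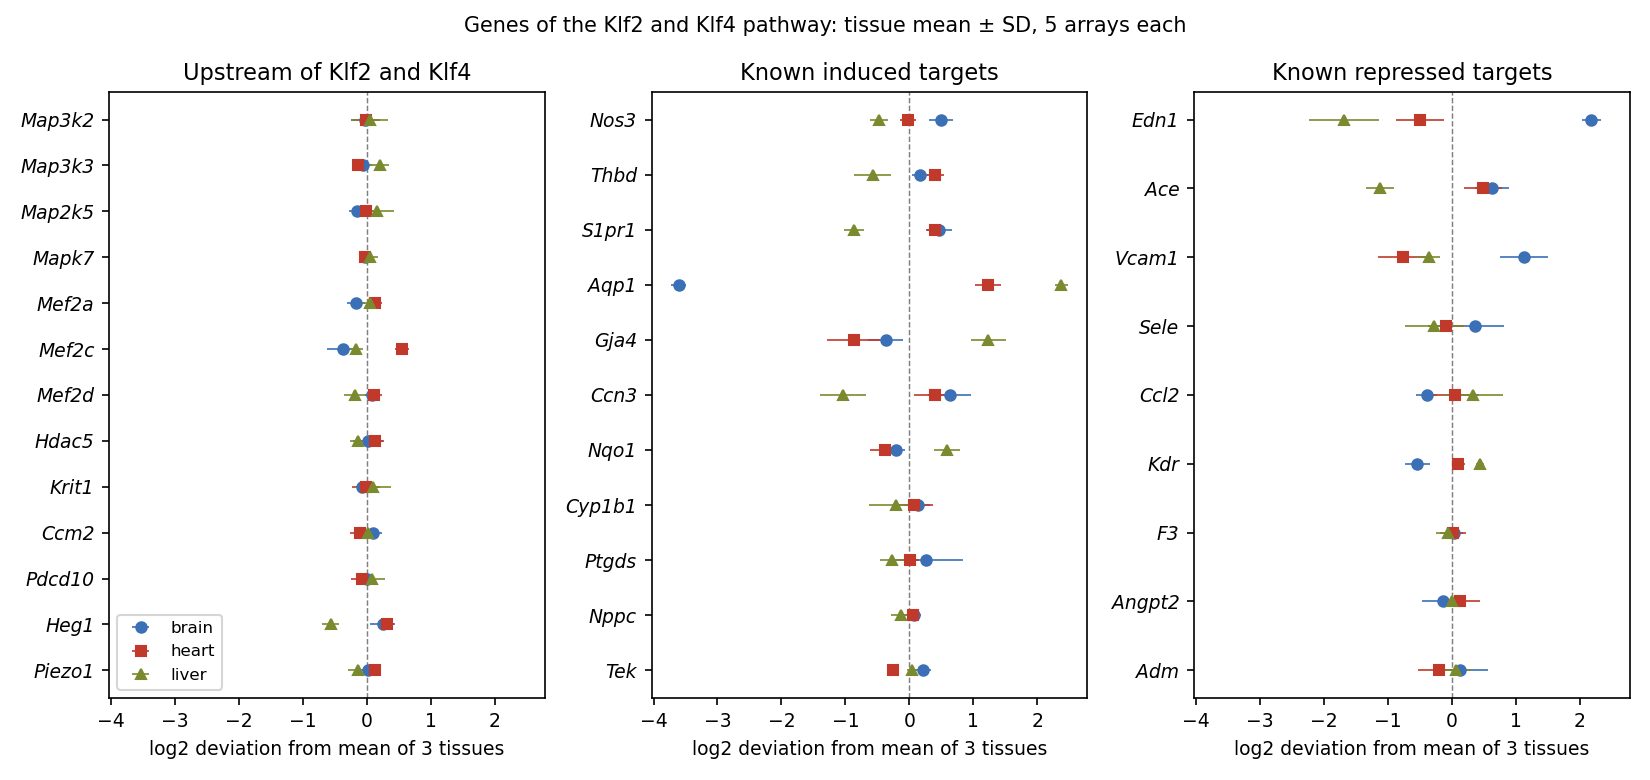
For genes upstream of Klf2 and Klf4, known induced targets and known repressed targets (1 panel each), points give each tissue's mean deviation from the mean of the 3 tissues (horizontal axis, log2) and bars are ± SD over 5 arrays. The upstream genes lie within about 1 log2 of each other, Aqp1 is lowest in brain (6.09), and Edn1 stands highest in brain, then heart (7.32), then liver (6.13).

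Among 15 measured relatives, the other Krüppel-like and Sp factors, 2 were higher in brain and 2 lower in liver than in both other tissues. Klf12, a repressor that binds CtBP, was 9.87 ± 0.16 for brain, 8.39 ± 0.28 for heart and 8.43 ± 0.29 for liver, and exceeded the other tissues by 1.48 and 1.44 log2 (adjusted p = 5.59e-07 and 3.89e-07), which no member followed here did. Sp5 was 5.59, 5.14 and 5.17, and both it and Klf8 (4.99, 4.80, 4.49) had levels under the 5.71 limit. Sp4 was 7.09, 7.17 and 6.43. Klf5, Klf14 and Klf16 were called in no contrast.

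Of 12 genes for proteins that recruit, modify or degrade these factors or that they recruit, 2 were lower and 1 was higher in liver than in both others, and none was apart in brain or heart. The deacetylase Hdac1 was 11.07 for liver against 9.84 for brain and 9.64 for heart, a difference of at least 1.23 log2 (adjusted p = 6.9e-09 against brain). The acetyltransferases Crebbp (10.29, 10.18, 9.88) and Ep300 (9.33, 9.24, 9.01) were lower in liver than in both others. Sin3a, the partner of Klf10 and Klf11, was lower in liver than in heart (0.30, adjusted p = 0.00813) but not than in brain (0.16, adjusted p = 0.19). Ctbp1 and Ctbp2, the partners of Klf3, were called in no contrast.

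Other genes that respond to the signals known to induce members were read beside them. Of 8 genes that respond to TGF-beta or its relatives, as Klf10 and Klf11 do, 4 were higher in brain and 3 lower in liver than in both others, among them Id1 (9.88 in brain, 9.73 in heart, 8.22 in liver), Pmepa1 (8.45, 7.78, 7.37) and Ccn2 (8.84, 8.05, 8.14). A list of 9 genes held the glucocorticoid receptor gene Nr3c1 and glucocorticoid response genes, the class to which Klf9 and Klf15 belong. Of these 9, 3 were lower and 3 higher in liver than in both others. Nr3c1 (9.36, 9.23, 8.97) was 1 of those lower in liver. Zbtb16 was 8.68 ± 1.17, 8.59 ± 1.25 and 6.09 ± 0.37, while Fkbp5 (6.34, 6.54, 7.83) and Pdk4 (7.65, 7.20, 8.81) were higher in liver. Of 14 clock genes, 2 were higher in brain, 1 lower in heart, 2 lower in liver and 1 higher in liver than in both others. Arntl was 8.03, 7.73 and 6.18, Dbp was 7.35, 6.77 and 8.24, and Nr1d1 was 9.99, 8.40 and 9.95. The labels used here give no hour of collection. Of 8 metabolic genes linked to Klf15, Tat was higher in liver than in both others (5.83 against 5.21 and 5.13), where it is also a hepatocyte marker, and the other 7 were not apart in any tissue.

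The genes most like Klf4 and Klf6 were found by the smallest root mean square difference over the 15 arrays after each gene was centred on its own mean. For Klf4 they were Azin1 (0.30 log2), Hsp90aa1 (0.32) and Akap13 (0.35). For Klf6 they were Hsp90aa1 (0.16), Bcam (0.21) and S1pr1 (0.21). Hsp90aa1, a cytosolic heat shock protein, was common to both, at 11.73, 11.62 and 10.32 for brain, heart and liver. S1pr1 is also on the list of induced targets, and Bcam, a laminin receptor, was 8.60, 8.49 and 7.27.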

How the data were processed

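The deposited table holds log2 values of 35556 probe sets for 15 arrays, which the authors made by RMA with Affymetrix Power Tools per the submitters' processing notes. Tool versions were not given in the sources used here. RMA normalizes arrays to near equal distributions and tends to compress large differences. The platform annotation gave 1 symbol for 21789 probe sets, several for 1621 and none for 12146. Of the 19938 genes, 999 had more than 1 probe set, and the one of highest mean was used. No low-value filter was applied in the tests. limma 3.58.1 in R 4.3.3 fitted 1 mean per tissue over all 15 arrays (lmFit, eBayes; 12 residual and 4.75 prior degrees of freedom), with Benjamini-Hochberg adjustment over all genes in each of 3 contrasts. The fit was tested on simulated data. The members and gene lists were chosen with earlier results of these data known. From other lists the text names up to 3 genes farthest from the nearer tissue, any flow-pathway or target gene called in a contrast, 2 leading genes per marker list and 3 most similar genes. Genes stated as called in no contrast, Klf8, Sin3a, Ctbp1, Ctbp2 and Nr3c1 are named for completeness, after their values were seen. Alternatives covered scaling, probe choice, filters, prior, array weights and left-out arrays. The number of arrays limits the precision.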

Additional observations from a re-analysis of the deposited data

How the results depend on the processing

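The liver differences of Klf4 and Klf6 kept their direction and their call under all 30 alternatives, at 0.79 to 1.87 and 0.85 to 1.29 log2. With a required difference of 1 log2, the genes called fell to 769 for brain minus heart, 1472 for brain minus liver and 1298 for heart minus liver, and the members called to 0, 2 and 2, with 2 apart in liver and 0 in heart. Leaving out single arrays gave 2675 to 3138 genes called between brain and heart (3070 with all), 0 to 2 members called there, 0 to 1 apart in brain and 0 to 1 in heart. Members called between brain and heart were 0 with median centring or without heart 1 and 3, and 2 with centring on endothelial genes, with repeated quantile normalization or with the immediate-early covariate. Members apart in brain were 1 with endothelial centring or the covariate. Members apart in heart were 0 with median centring, without heart 1 and 3, or without liver 1, 3 and 4. Without liver 1, 3 and 4, so with only liver 2 and 5 left, 3285 genes and 3 members were called between heart and liver and 3 members were apart in liver. The covariate, the pair heart 1 with liver 2 and the trio liver 1, 3 and 4 were chosen after seeing the data.

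Endothelial centring moved the median of all genes for brain minus heart from -0.03 to -0.17, and the share of calls higher in brain from 53.8% to 30.2%; for heart minus liver the share higher in heart went from 41.3% to 52.3%. Differences that were not called changed sign as follows. Leaving out single arrays gave -0.026 to 0.069 for Klf3 brain minus liver, -0.29 to 0.081 for Klf4, -0.015 to 0.13 for Klf6, -0.12 to 0.066 for Klf9 and -0.17 to 0.0050 for Klf13 (each brain minus heart), -0.018 to 0.12 for Klf9 brain minus liver, and -0.027 to 0.16 for Klf9, -0.090 to 0.050 for Klf10 and -0.029 to 0.068 for Klf15 (each heart minus liver). Median centring gave -0.013 for Klf3 brain minus liver and -0.039 for Klf15 heart minus liver. Endothelial centring gave -0.032 for Klf3 and -0.016 for Klf9 (brain minus liver), -0.095 for Klf6 (brain minus heart) and 0.058 for Klf10 (heart minus liver). Repeated quantile normalization gave -0.011 for Klf6 brain minus heart, 0.019 for Klf7 brain minus liver, and 0.10 for Klf10 and -0.027 for Klf15 (heart minus liver). Without heart 1 and 3, brain minus heart was 0.21 for Klf4 and 0.14 for Klf9, and heart minus liver -0.10 for Klf9. Without heart 1 and liver 2 these were 0.081, 0.066 and -0.0098. The covariate gave -0.081 for Klf6 brain minus heart, and -0.22 and -0.083 for Klf9 against liver in brain and heart. Without liver 1, 3 and 4, Klf3 and Klf9 were -0.10 and -0.094 (brain minus liver) and Klf7, Klf9 and Klf15 were -0.021, -0.057 and -0.12 (heart minus liver). The cause of these changes was not tested.

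Samples share the numbers 1 to 5 across tissues. The labels do not say that a number marks shared animals or a shared isolation, so the numbers were not taken to pair the samples. Of 15 same-numbered pairs 6 had a correlation of deviations above 0.1 (range -0.00053 to 0.204). Yet 12 of 15 arrays correlated best with their own number. This is a hint of something shared, from the data and not the design, and the correlations do not exclude a pairing. With a replicate block, 3369, 5282 and 5936 genes were called in the 3 contrasts, against 3070, 5003 and 5538 without it. The counts of members called and apart were the same in both fits.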
